A study of Mus musculus with 5 samples.

Results

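The places bound by IRF4 and by IRF8 in mouse B cells after 72 h of culture with lipopolysaccharide (LPS) were compared through the 2 deposited lists of binding peaks, 1 for each factor. The IRF4 list held 898 peaks and the IRF8 list 1059, together 1957 of the 5590 peaks of the series. Peaks in repeated or unplaced sequence were set aside: 12 IRF4 and 11 IRF8 peaks lay on sequence with no chromosome position, and 54 and 134 were multi-copy, meaning that the median 24-base word within 100 bp of the centre occurred more than 1 time in the genome. This left 832 IRF4 and 914 IRF8 peaks, 1746 in all. A peak was called shared when it overlapped a peak of the other list by at least 1 bp, and IRF4 alone or IRF8 alone when it overlapped none.

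Both groups were naive B cells of the spleen of wild-type C57BL/6 mice, activated in culture for 72 h with 10 µg/ml LPS, a bacterial cell wall component sensed by Toll-like receptors. Chromatin immunoprecipitation followed by sequencing (ChIP-seq) used the antibody M-17 against IRF4 or C-19 against IRF8. Each group was 1 library, so no difference has a replicate check. The p-values and intervals of tag counts and their ratios cover counting error of tags only. Intervals of shares and odds ratios count peaks as if each were an independent draw. None of them covers the variation between libraries. The other 3 libraries of the series, those of IRF4 and IRF8 after 48 h of LPS and of IRF8 in B cells of the germinal centre (GC), sorted on day 13 after immunization, served as outside reference. The sources used here do not give the number of mice behind each library or whether their cells were pooled. The header of the IRF8 72 h list names its tags as a second replicate, and whether a further library was merged is not given. Peaks carry no expression values, so the label of B cells could not be checked against marker genes.

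IRF4 and IRF8 belong to the interferon regulatory factors, which bind DNA through the core GAAA. On their own or with relatives they bind the interferon-stimulated response element (ISRE), in which GAAA is repeated. Both bind weakly by themselves at many places and are held there by partners: an ETS factor such as PU.1 at the composite ETS-IRF element (EICE), or a BATF-JUN dimer at the composite AP-1-IRF element (AICE). In B cells, IRF4 is known for its role in plasma cell differentiation, and IRF8 for its part in early B cell development and the germinal centre.

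The sequences under the highest peaks show these elements. Each is read 5′ to 3′ on the strand of the motif in the mm9 genome, and is the highest peak of its class with that motif near a gene: shared, then IRF4 alone and, for the motifs after the EICE, IRF8 alone. The EICE was searched as GGAA, any 2 bases, then GAAA, and is in capitals here.
Pax5, chr4:44684043-44684112, plus strand: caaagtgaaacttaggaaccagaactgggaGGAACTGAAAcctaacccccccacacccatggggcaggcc
Cobll1, chr2:65036822-65036891, plus strand: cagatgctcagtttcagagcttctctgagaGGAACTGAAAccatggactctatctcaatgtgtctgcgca
The shared EICE lay in an intron of Pax5, the gene of the transcription factor that keeps B cell identity, 12.6 kb from a transcription start site (TSS). The IRF4 alone EICE lay in an intron of Cobll1. EICEs of IRF8 alone peaks are printed with the middle bases of the element.

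The ISRE core was searched as GAAA, any 2 bases, then GAAA, so that it can overlap an EICE by 4 bases or more, and is in capitals in the next set.
Stoml1, chr9:58119099-58119168, plus strand: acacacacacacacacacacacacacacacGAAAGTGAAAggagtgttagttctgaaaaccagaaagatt
Atp11b, chr3:35663672-35663741, minus strand: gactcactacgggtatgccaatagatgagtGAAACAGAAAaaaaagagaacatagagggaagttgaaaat
Erap1, chr13:74777287-74777316, minus strand: gcccgggaccGAAAGTGAAAgtgaaggtgg
The Erap1 sequence sits at the promoter of the gene for an aminopeptidase that trims peptides for MHC class I. The shared ISRE near Stoml1 borders a run of repeated bases.

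AP-1 sites, TGACTCA or TGAGTCA, are in capitals in the last set.
Recql5, chr11:115791125-115791191, plus strand: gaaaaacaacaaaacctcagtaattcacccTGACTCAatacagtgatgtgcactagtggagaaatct
AA467197, chr2:122478225-122478291, plus strand: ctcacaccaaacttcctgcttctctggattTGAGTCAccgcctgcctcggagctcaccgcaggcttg
Cdh17, chr4:11690563-11690629, plus strand: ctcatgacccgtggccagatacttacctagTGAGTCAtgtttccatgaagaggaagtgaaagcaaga
The IRF8 alone peak near Cdh17 also held an EICE, which lay 7.5 bp from the peak centre against 30 bp for its AP-1 site.

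The 2 lists overlapped at 209 places. These were 25.1% of the IRF4 peaks (exact Clopper-Pearson 95% interval 22.2 to 28.2%) and 22.9% of the IRF8 peaks (20.2 to 25.7%). Outside them lay 618 IRF4 alone and 705 IRF8 alone peaks, which with the shared places made 1532 distinct places. A further 5 IRF4 peaks overlapped an IRF8 peak that had been set aside, and were counted in neither class. At the shared places the centres of the 2 peaks were close, with a median distance of 29 bp, and 196 of 209 pairs lay within 100 bp.

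A peak called alone is a peak not listed for the other factor, not a place shown to lack it. The libraries were shallow, with 3766015 IRF4 and 3065426 IRF8 tags, of which 0.45% and 0.52% fell in peaks. Tag counts below are the authors' normalised values, scaled to 10000000 tags per library. The median was 29.2 normalised tags at IRF4 alone peaks (11 tags before scaling) and 29.4 at IRF8 alone peaks (9 tags), next to the caller's cut-offs of 26.6 and 29.4. Some listed peaks lay under these cut-offs, down to 18.6 and 22.8 normalised tags (7 tags in each list). The cut-offs are therefore not the lowest count at which a peak was listed. Shared places were higher, with medians of 37.2 in IRF4 and 39.1 in IRF8. The exact Poisson 95% interval of the peak lay wholly above the cut-off of the other library at 21 of 618 IRF4 alone peaks and at 47 of 705 IRF8 alone peaks. At the rest the interval was not wholly above that cut-off. An unlisted place can itself lie above the cut-off, since the caller removed 106 IRF4 and 98 IRF8 candidate peaks after comparison with the surrounding region. The other factor's tags are not in the lists for any alone peak. A difference in binding was therefore not tested at these places, those with an interval above the cut-off included.

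Repeated sequence differed between the classes even after multi-copy peaks were set aside. Of the 178 words of 24 bases around a centre, 10 or more were repeated elsewhere at 41.3% of IRF8 alone peaks, 25.8% of shared places and 15.7% of IRF4 alone peaks. Every word was found once at 305 of 705, 129 of 209 and 456 of 618. With this stricter rule the shared places were 22.0% of the IRF4 and 29.7% of the IRF8 peaks. The rule was added after the data were seen, and main results that change under it are given with both values. Under it, IRF8 alone peaks held an EICE at 29.8% where all 705 had it at 19.6%, an ISRE core at 16.1% (all 705: 12.2%) and an AP-1 site at 9.18% (6.81%), and 12.8% of them were at promoters (9.93%).

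**Figure D1:**
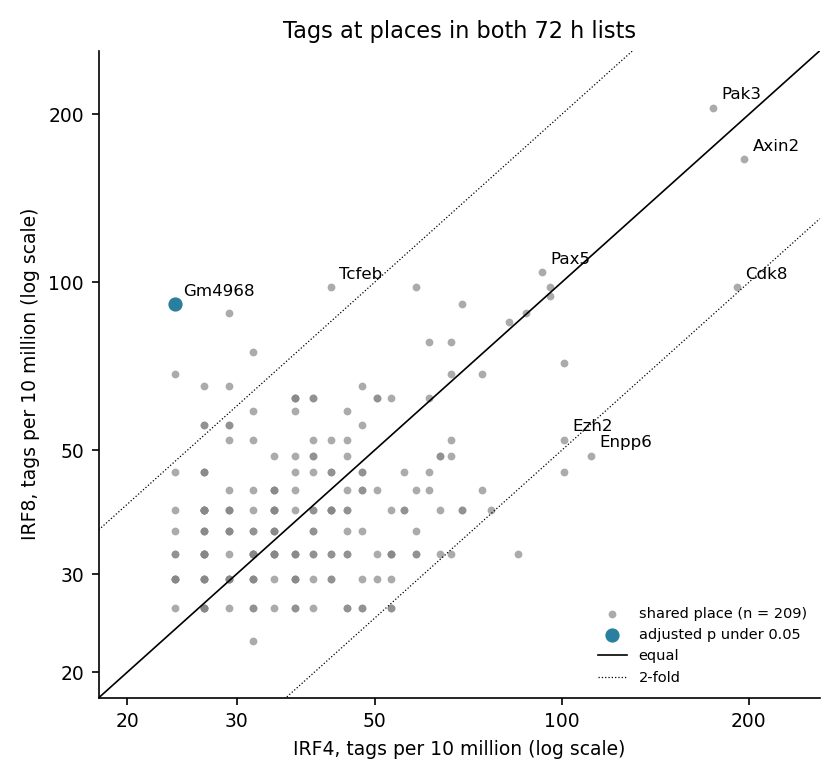
IRF4 (x axis) and IRF8 (y axis) normalised tag counts, tags per 10000000 on log scales, at the 209 shared places; the solid line marks equal counts, the dotted lines a 2-fold difference, and the large point the place with an adjusted p under 0.05. Most points (194 of 209) lie within 2-fold of equality, and the Gm4968 place lies above it.

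Tag counts of the 2 factors were close at the shared places, where both had been called. A place with few tags of either factor would fall outside this class, so the closeness stems in part from the selection. IRF4 was above IRF8 at 96 places and below it at 113, with a median log2 ratio of -0.03 (quartiles -0.30 and 0.34). At 153 places (73.2%) the 2 counts lay within 1.5-fold of each other, and at 194 (92.8%) within 2-fold. Over the 209 places the log counts had a Pearson correlation of 0.49 and the counts a Spearman correlation of 0.33, given as a description only, since the places share 2 libraries and their depth. In the third of places with the most tags (geometric mean of both counts) the Spearman correlation was 0.056, and in the rest -0.142. Each part spans a narrower range, and the split rests on both counts, which by itself lowers the correlation within each part. These 2 values therefore cannot show whether the counts are related there.

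The exact two-sided binomial test of the IRF4 tags among the tags of both, adjusted by Benjamini-Hochberg over the 209 places, called 1 place (0.478%), with IRF8 higher, and 0 with IRF4 higher. Without adjustment 12 places had a p under 0.05, 5 with IRF4 higher and 7 with IRF8 higher. Medians of 14 IRF4 and 12 IRF8 tags before scaling limit the differences that this test can call. The called place, chr6:127195816-127196316, was intergenic and lay 12.3 kb from a TSS of Gm4968. It had 23.9 normalised IRF4 tags (95% Poisson interval 10.9 to 45.4) and 91.3 IRF8 tags (60.7 to 132.0). IRF8 was thus 3.82-fold higher (exact interval 1.75 to 9.21, adjusted p = 0.0397 by the exact binomial test), and the 2 intervals did not overlap. IRF8 was also listed there at 48 h (36.6) and in GC B cells, while IRF4 was not listed at 48 h. Its sequence, with the ISRE core in capitals, holds GAAA several times, and its EICE overlaps the core.
Gm4968, chr6:127196050-127196079, minus strand: tgatggaatgGAAACTGAAAgtgaaagcca

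Among the shared places near a gene, the 8 with the most tags were near Pak3, Cdk8, Pax5, Recql5, Cdk5rap2, Stoml1, Sfi1 and Enpp6. The highest, 35.5 kb upstream of Pak3, a gene of a p21-activated kinase, had 175.3 IRF4 and 205.5 IRF8 tags. The place in an intron of Cdk8, which encodes a kinase of the Mediator complex, had 191.2 and 97.9 (1.95-fold higher in IRF4, interval 1.26 to 3.10, exact binomial adjusted p = 0.131). The Pax5 intron place had 92.9 and 104.4, the Recql5 place 87.6 and 88.1, and the Cdk5rap2 place 82.3 and 84.8, with little between the factors. Of the 10 shared places with the most tags, 9 had 10 or more repeated words, and the part of other copies in their height was not tested.

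Among shared places whose every word was found once, the highest near genes lay by Enpp6, Ezh2, Snx29, Nup160, Ndst1, 4930426L09Rik, Tcfeb and Rbpj. Enpp6 had 111.5 IRF4 and 48.9 IRF8 tags (adjusted p = 0.256, exact binomial test) and held an AICE. The place 26.0 kb upstream of Ezh2, which encodes the histone methyltransferase of Polycomb complexes, had 100.9 IRF4 and 52.2 IRF8 tags (adjusted p = 0.532, exact binomial test) and held an AP-1 site. The place in an intron of Tcfeb, 374 bp from a TSS, ran the other way with 42.5 IRF4 and 97.9 IRF8 tags (adjusted p = 0.264, exact binomial test). Tcfeb is the annotation's symbol for the lysosomal regulator TFEB. The intron place of Rbpj, the DNA-binding factor of Notch signalling, had 61.1 and 62.0. None of these 3 differences passed the adjusted test, and the last pair was level. The Tcfeb and Rbpj places also held an AICE, with 4 bases between TTTC and the AP-1 site.

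**Figure D2:**
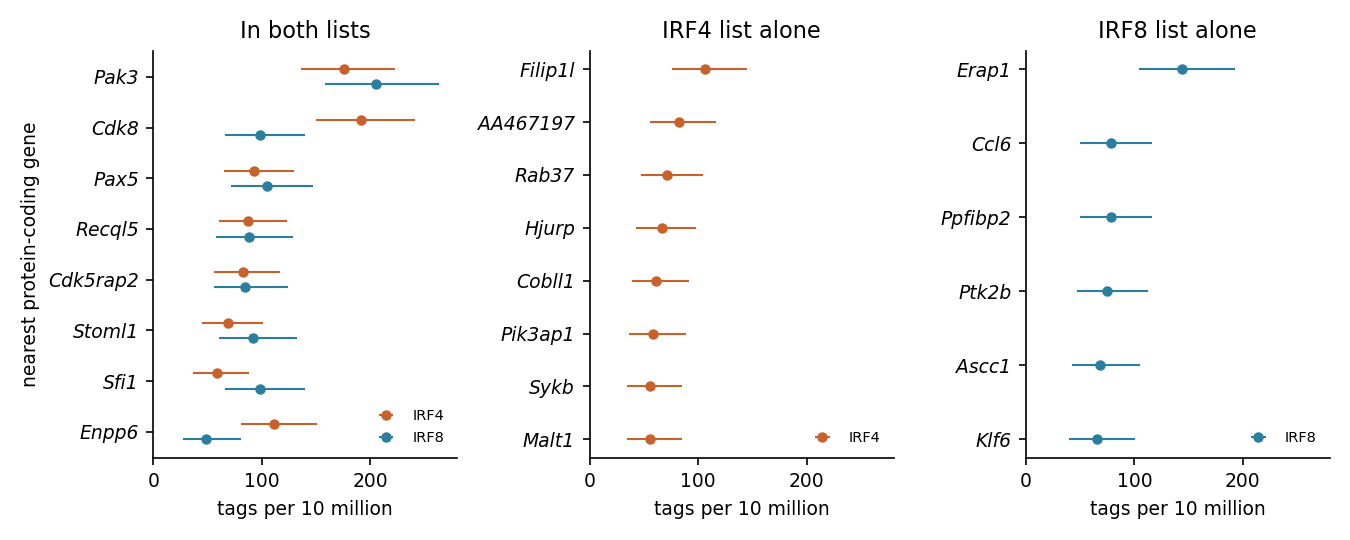
Normalised tag counts (tags per 10000000, x axis) at the 8 highest shared and IRF4 alone places and at 6 of the 8 highest IRF8 alone places with a protein-coding TSS within 50 kb (y axis, nearest gene), with exact Poisson 95% intervals as bars. At Cdk8 the IRF4 interval (149.6 to 240.8) lies above that of IRF8 (66.0 to 139.7), and Erap1 (143.5) is the highest IRF8 alone place.

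Of the 8 highest IRF4 alone peaks, 3 lay near genes of the B cell receptor list. In that list 8 of 36 genes (22.2%) were near an IRF4 alone and 7 (19.4%) near an IRF8 alone peak. Over all genes these shares were 2.17% and 2.31%, so the list as a whole did not separate the factors. Among the 8 peaks, Filip1l led with 106.2 normalised tags (interval 75.9 to 144.6), followed by AA467197 with 82.3, Rab37 with 71.7, Hjurp with 66.4 and Cobll1 with 61.1. Pik3ap1, which encodes the adaptor BCAP of the B cell receptor pathway, had 58.4 tags in an intron. Sykb, the annotation's symbol for the kinase SYK that starts B cell receptor signalling, and Malt1, a protease that links the receptor to NF-kappaB, had 55.8 each. The plot of the highest places shows that these 8 intervals overlap their neighbours, so their order is not resolved. Of the 8, all but Hjurp were also in the IRF4 48 h list, at 126.6 (Filip1l), 135.4 (AA467197) and 141.3 (Malt1), for example. The Pik3ap1 and Sykb places were listed for IRF8 at 48 h as well, at 29.7 and 25.1 tags, so IRF8 was called at both places in another library.

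The highest IRF8 alone peak was at the promoter of Erap1, 11 bp from its TSS, with 143.5 normalised tags (interval 104.3 to 192.7). Among the 8 highest, Ccl6 and Ppfibp2 had 78.3 each. Ptk2b, a kinase of the focal adhesion family, had 75. Ascc1 had 68.5 and Klf6, a zinc finger factor, 65.2. Erap1 stood clear of these in value, though its lower bound of 104.3 lies under the upper bound of Ccl6 and Ppfibp2 (116.5). Erap1 was also listed for IRF8 at 48 h (64.0) and in GC B cells, and not for IRF4 at either time. The Ccl6 place was listed for IRF4 at 48 h with 82.4 tags, so IRF4 was called there in another library.

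**Figure D3:**
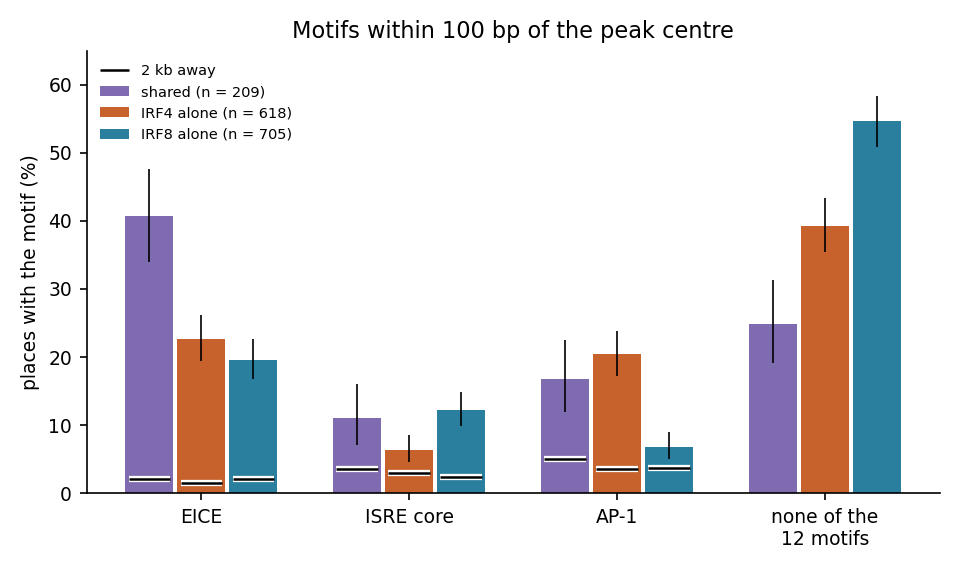
Share of shared, IRF4 alone and IRF8 alone places (y axis, %) with an EICE, an ISRE core, an AP-1 site, or none of the 12 motifs searched within 100 bp of the centre, with exact 95% intervals; black ticks mark windows 2000 bp away. The EICE is at 40.7% of shared places, and AP-1 at 20.4% of IRF4 alone against 6.81% of IRF8 alone places.

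Motifs separated the classes. An EICE lay within 100 bp of the centre at 40.7% of shared places (85 of 209, interval 33.9 to 47.7%), 22.7% of IRF4 alone peaks (140 of 618, 19.4 to 26.2%) and 19.6% of IRF8 alone peaks (138 of 705, 16.7 to 22.7%). Windows of the same length 2000 bp away held one at 1.46% to 2.15% in the 3 classes, and 1.63% of windows at the starts of protein-coding genes held one. The odds of an EICE in IRF4 alone over IRF8 alone peaks were 1.2 (exact conditional interval 0.915 to 1.58), which includes 1. Where every word was found once the ratio turned to 0.644 (0.456 to 0.910), so the order of these classes in EICE depends on how repeated sequence is treated.

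AP-1 sites were on the IRF4 side. They lay at 20.4% of IRF4 alone peaks (126 of 618, 17.3 to 23.8%), 16.7% of shared places (35 of 209, 11.95 to 22.5%) and 6.81% of IRF8 alone peaks (48 of 705, 5.06 to 8.93%), and 3.56% to 5.02% of windows 2000 bp away. The odds ratio of IRF4 alone over IRF8 alone was 3.50 (2.44 to 5.10), and away from promoters 4.14 (2.81 to 6.17). At promoters the share was 8.82% of 102 IRF4 alone and 8.57% of 70 IRF8 alone peaks (odds ratio 1.03, interval 0.310 to 3.71). Of the IRF4 alone peaks that were in the IRF4 48 h list too, 28.5% held the site, and 11.1% of those that were not.

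The composite AP-1-IRF element in which GAAA runs straight into the AP-1 site was found at 13 of 618 IRF4 alone peaks, at 4 of 209 shared places and at 0 of 705 IRF8 alone peaks, for which the exact upper bound is 0.522%. Of the 13, 12 were in the IRF4 48 h list, the exception being the peak by Ccr7, the chemokine receptor that draws B cells to T cell zones. The element is in capitals here for the highest 2 shared places and the highest 3 IRF4 alone peaks that lie near a gene.
Enpp6, chr8:48026836-48026864, plus strand: caactggaaGAAATGAGTCAccgcacttt
Zmynd11, chr13:9766737-9766765, minus strand: agagctatcGAAATGACTCAgggtttagg
Apaf1, chr10:90491853-90491881, plus strand: gggctcaatGAAATGAGTCAagcataaat
Rnf157, chr11:116267887-116267915, minus strand: tgaaaggtaGAAATGACTCAgccgacgga
Il13, chr11:53470569-53470597, plus strand: aaagagaaaGAAATGACTCAacataaata
The IRF4 alone sites lay 28.8 kb from Apaf1, a core gene of the apoptosome, 6.50 kb from Rnf157 and 22.3 kb from Il13, a cytokine gene. The arrangement with 4 bases between TTTC and the AP-1 site was at 4.78% of shared places, 1.29% of IRF4 alone and 0.851% of IRF8 alone peaks, and its odds ratio of 1.53 between the last 2 had an interval from 0.462 to 5.37.

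The ISRE core was more frequent in IRF8 alone than in IRF4 alone peaks, with a larger odds ratio at promoters. It lay at 12.2% of IRF8 alone peaks (86 of 705, 9.87 to 14.8%), 11.0% of shared places (23 of 209) and 6.31% of IRF4 alone peaks (39 of 618, 4.53 to 8.53%), against 2.34% to 3.59% of windows 2000 bp away. The odds ratio of IRF8 alone over IRF4 alone was 2.06 (1.37 to 3.15). At promoters, within 1000 bp of a TSS, 23 of 70 IRF8 alone peaks (32.9%, 22.1 to 45.1%) and 7 of 23 shared places (30.4%) held the core, against 4 of 102 IRF4 alone peaks (3.92%, 1.08 to 9.74%). There the odds ratio of IRF8 alone over IRF4 alone was 11.8 (3.74 to 49.7). Most IRF8 alone peaks with the core, 63 of 86, still lay away from promoters. Away from promoters it was 1.51 (0.967 to 2.40), an interval that includes 1. The 6 odds ratios split by promoter were computed after the shares had been seen.

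Of the IRF8 alone promoter peaks with an ISRE core, the 6 with the most tags are shown with the core in capitals.
Erap1, chr13:74777287-74777316, minus strand: gcccgggaccGAAAGTGAAAgtgaaggtgg
Usf1, chr1:173342429-173342458, minus strand: aaagggaactGAAAGTGAAActgtccgtag
Psmb8, chr17:34335280-34335309, minus strand: acaaggaagtGAAAGCGAAAgccacagtac
Flt3l, chr7:52391793-52391822, plus strand: gccaaagaccGAAAGTGAAAggaagctttg
Irgm1, chr11:48684927-48684956, minus strand: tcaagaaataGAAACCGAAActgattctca
5033414D02Rik, chr19:29441568-29441597, minus strand: aactaaaagtGAAAGTGAAAcctgcattag
Psmb8 (52.2 normalised IRF8 tags) encodes a subunit of the immunoproteasome, Flt3l (48.9) a growth factor of dendritic cells, Irgm1 (42.4) an interferon-induced GTPase and Usf1 (58.7) an E-box factor. Further down lay Tapbp (39.1), which encodes the tapasin of MHC class I loading, Trim21 (39.1), an antibody-binding ubiquitin ligase, Socs1 (35.9), an inhibitor of cytokine signalling, Mov10 (35.9) and Ddx60 (32.6). The 7 shared promoters with the core were those of Nmi (29.2 IRF4, 55.5 IRF8), Grn, Lgals8, Gbp7 (29.2 and 35.9), Gbp3 (39.8 and 26.1), Mpeg1 and Parp9 (26.6 and 29.4). The 4 IRF4 alone ones were H2-T24 (34.5), Etv6, Slc37a2 and Fam100b. Of the 23 IRF8 alone promoter peaks with the core, 17 were also in the GC list of IRF8 (73.9%, 51.6 to 89.8%), 2 in the IRF8 48 h list and 0 in the IRF4 48 h list. The GC list also held 5 of the 7 shared and 2 of the 4 IRF4 alone promoter places with the core. Of the 47 IRF8 alone promoter peaks without the core, 9 were in the GC list (19.1%, 9.15 to 33.3%).

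The other motifs searched gave these shares. The octamer ATGCAAAT, bound by POU factors, was at 3.88% of IRF4 alone and 1.42% of IRF8 alone peaks (odds ratio 2.81, 1.28 to 6.63), where windows 2000 bp away gave 1.13% and 1.49%. The ETS form GAGGAAGT was at 12.9% of shared places, 8.58% of IRF4 alone and 6.38% of IRF8 alone peaks (odds ratio 1.38, 0.892 to 2.13). The RUNX form TGTGGTTT was at 8.13% of shared places, 3.88% and 3.26%. None of the 12 motifs was found at 24.9% of shared places, 39.3% of IRF4 alone and 54.6% of IRF8 alone peaks. The IRF8 alone class thus held the most peaks with no motif searched, and also the most repeated words, and the part of the latter in the former was not tested. In all, 14 odds ratios of this kind were computed over the lists, promoter share included, with no p-value.

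Tag counts differed little between motifs. IRF8 alone peaks with an EICE, an ISRE core or an AP-1 site each had a median of 32.6 normalised tags, against 29.4 for those with none of the 12 motifs. IRF4 alone peaks had 31.9 with AP-1, 29.2 with an EICE and 26.6 with an ISRE core. At the shared places, those with only an EICE of these 3 elements had a median log2 ratio of IRF4 over IRF8 of -0.08 (74 places), those with only AP-1 0.00 (26) and those with only an ISRE core -0.30 (12, of which 8 had IRF8 above). The elements lay near the peak centre: at IRF8 alone peaks the EICE was a median of 16.5 bp from it, at shared places 21.5 bp and at IRF4 alone peaks 25.5 bp.

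The EICE itself differed between the IRF4 alone and IRF8 alone classes in the 2 bases between GGAA and GAAA. This was noticed after the motif shares had been seen. In IRF4 alone peaks these bases were CT at 62 of 140 (44.3%, 35.9 to 52.9%) and GT at 38 (27.1%, 20.0 to 35.3%). In IRF8 alone peaks the order turned, with CT at 20 of 138 (14.5%, 9.08 to 21.5%) and GT at 67 (48.6%, 39.96 to 57.2%). Shared places lay between, with CT at 31 and GT at 27 of 85. The odds of CT in IRF4 alone over IRF8 alone peaks were 4.66 (2.55 to 8.83), and the odds of GT in IRF8 alone over IRF4 alone were 2.52 (1.49 to 4.32). The first ratio was 4.97 where every word was found once, 5.35 away from promoters and 7.08 for peaks at or above the median tag count, with intervals above 1 in each.

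Here 4 of the 5 highest IRF4 alone peaks with an EICE near a gene, all at 53.1 normalised tags or above, show this in the letters, with the element in capitals.
Cobll1, chr2:65036842-65036871, plus strand: ttctctgagaGGAACTGAAAccatggactc
Cnpy3, chr17:46888533-46888562, minus strand: gcgaatttgaGGAACTGAAAaggtccatat
Ppp1r1c, chr2:79582281-79582310, plus strand: ttgcttttgaGGAACTGAAAaacagccttt
Il15, chr8:84940707-84940736, minus strand: gcccctcagaGGAACTGAAAcctcccaaga
In all 4 the middle bases are CT. Il15 is a cytokine gene, and Cnpy3 encodes a chaperone of Toll-like receptors.

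Next are 6 of the 7 highest IRF8 alone peaks with an EICE near a gene, all at 62.0 normalised tags or above.
Ascc1, chr10:59443728-59443757, minus strand: agagggcaggGGAAGTGAAAgcaggaagac
Klf6, chr13:5863942-5863971, minus strand: tactgaaagtGGAACTGAAAgcacacagga
P4ha2, chr11:53905381-53905410, plus strand: tttaaaaagaGGAACAGAAAgtgaggcacc
Ctss, chr3:95325289-95325318, minus strand: cccctcggagGGAAATGAAAgcagaaagag
Cdh17, chr4:11690604-11690633, plus strand: tccatgaagaGGAAGTGAAAgcaagacctg
Ankdd1a, chr9:65383145-65383174, minus strand: cttcaggagaGGAAGTGAAAccaggacacg
Of these 6, 1 has CT and 3 have GT, and the other two differ from both. Ctss encodes cathepsin S, a protease of antigen presentation.

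Lists that had no part in the comparison gave a second reading. Among IRF4 48 h peaks that overlapped neither 72 h list, 69 held an EICE, with CT in 43.5% (31.6 to 56.0%) and GT in 20.3% (11.6 to 31.7%). Among GC peaks of IRF8 outside both 72 h lists, 67 held one, with CT in 1.49% (0.0378 to 8.04%) and GT in 19.4% (10.8 to 30.9%). The IRF8 48 h list had 5 such peaks, too few to read. At windows around all transcript starts of protein-coding genes, 1134 held an EICE, with CT in 4.32% and GT in 8.91%. CT was thus above the share at start sites in both IRF4 sets and, less so, in IRF8 alone peaks, while the interval of the GC set includes that share. GT was at a like share in the IRF4 48 h and GC sets, so the higher GT of IRF8 alone peaks was not seen between these lists. The GC intervals were made with another caller and carry no peak centre other than their middle, so the EICE found there may lie away from the bound place. At the 31 shared places with CT the median log2 ratio of IRF4 over IRF8 was 0.03, and at the 27 with GT it was -0.16, with wide and overlapping quartiles (-0.21 to 0.45 and -0.42 to 0.27).

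**Figure D4:**
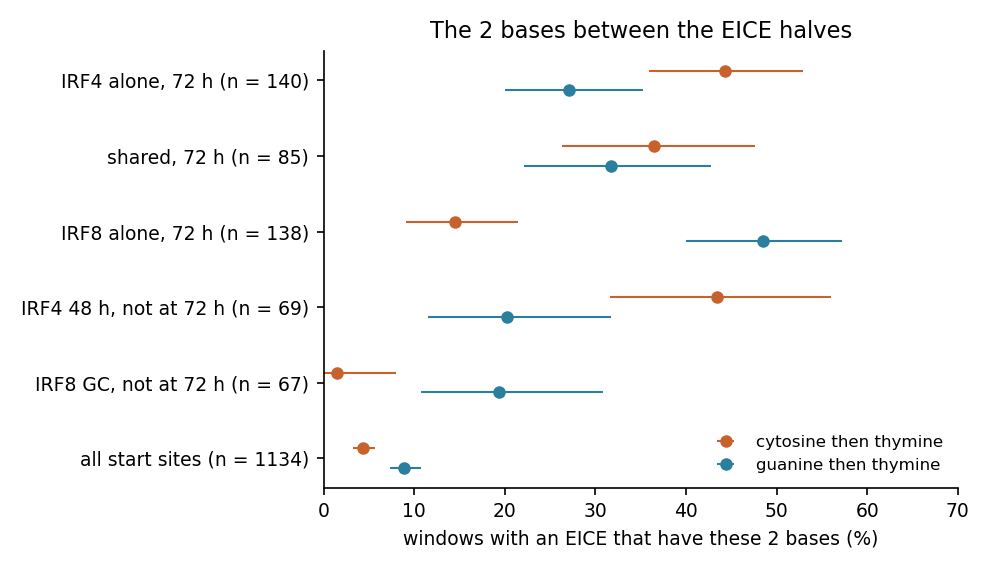
Share (x axis, %) of windows with an EICE whose 2 middle bases are cytosine then thymine (CT) or guanine then thymine (GT), with exact 95% intervals, for the 3 classes at 72 h, peaks of other lists outside the 72 h lists, and all transcript starts (y axis). CT is at 44.3% in IRF4 alone and 14.5% in IRF8 alone peaks, GT at 27.1% and 48.6%.

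Most places of every class lay away from promoters. Promoter peaks made up 16.5% of IRF4 alone (102 of 618, 13.7 to 19.7%), 9.93% of IRF8 alone (70 of 705, 7.82 to 12.4%) and 11.0% of shared places (23 of 209, 7.11 to 16.1%). The odds ratio of IRF4 alone over IRF8 alone was 1.79 (1.28 to 2.52). It was 1.06 (0.646 to 1.72) for peaks at or above the median tag count of the pooled lists and 1.32 (0.855 to 2.07) where every word was found once, both with intervals that include 1. The median distance to a TSS was 13.5 kb for IRF4 alone, 16.3 kb for IRF8 alone and 17.8 kb for shared places. Introns held 47.7%, 45.1% and 43.1% of them, and places between genes 46.1%, 49.1% and 52.6%. IRF8 alone peaks lay over 100 kb from any TSS at 15.3% (108 of 705), against 7.12% of IRF4 alone peaks.

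**Figure D5:**
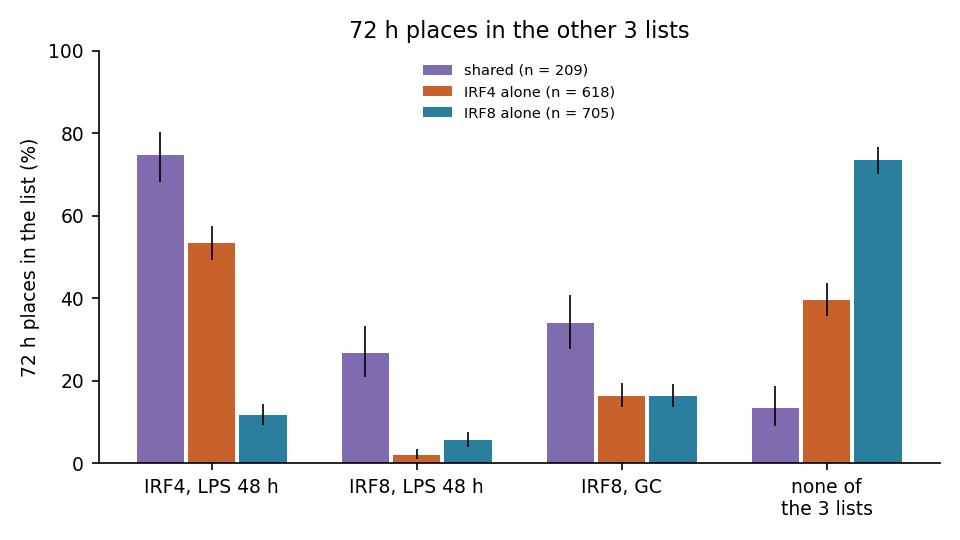
Share (y axis, %) of shared, IRF4 alone and IRF8 alone 72 h places that overlap the IRF4 48 h, IRF8 48 h and IRF8 GC lists, or none of them, with exact 95% intervals. IRF4 48 h peaks cover 74.6% of shared and 53.4% of IRF4 alone places, and 73.5% of IRF8 alone places are in none of the 3 lists.

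Shares in the IRF4 48 h list differed between the classes, while the GC list held 16.3% of both IRF4 alone and IRF8 alone peaks. With every word found once, the GC shares of these classes were 15.6% (12.4 to 19.2%) and 24.6% (19.9 to 29.8%). Of the shared places, 74.6% (156 of 209, 68.2 to 80.4%) were in the IRF4 48 h list, 26.8% in the IRF8 48 h list and 33.97% in the GC list. Of the IRF4 alone peaks, 53.4% (330 of 618, 49.4 to 57.4%) were in the IRF4 48 h list, 1.94% in the IRF8 48 h list and 16.3% in the GC list. Of the IRF8 alone peaks, 11.6% (82 of 705) were in the IRF4 48 h list, 5.53% in the IRF8 48 h list and 16.3% in the GC list. None of the 3 lists held 73.5% of IRF8 alone peaks, 39.6% of IRF4 alone peaks and 13.4% of shared places. The IRF8 48 h list had 234 peaks and the IRF4 48 h list 1573, so a place had more chances to be found in the second, and the shares were not set against each other. The 82 IRF8 alone places in the IRF4 48 h list had IRF4 called at 48 h, and an EICE was at 32.9% of them against 17.8% of the rest.

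The ISRE core was more frequent at places that were also in the GC list, in all 3 classes. Among the 115 IRF8 alone peaks in the GC list, 33.0% held an ISRE core (24.6 to 42.4%) and 33.0% an EICE, against 8.14% (6.06 to 10.6%) and 16.9% of the 590 that were not in it. At shared places the core was at 19.7% (11.2 to 30.9%) of those in the GC list and 6.52% (3.03 to 12.02%) of the rest, and at IRF4 alone peaks at 13.9% (7.79 to 22.2%) and 4.84% (3.15 to 7.06%). Whether this difference itself differs between the classes was not tested. At 49 shared places all 4 LPS lists had a peak. There IRF4 was above IRF8 at 45 places at 48 h, with a median log2 ratio of 0.62, and at 19 places at 72 h, with a median of -0.12. Each of these ratios sets 2 libraries side by side, and the 4 libraries also differed in the share of tags in peaks.

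Each peak was assigned to 1 protein-coding gene, that of the closest TSS up to 50 kb away, which does not show that the gene is regulated. A peak can also lie inside another gene. The peaks assigned to Filip1l, Il13, Bhlha15, Bcl2l11 and Tnip1 lay in introns of 2610528E23Rik, Rad50, Lmtk2, Acoxl and Anxa6, in that order. Of 22238 genes, 1089 (4.90%) were nearest to a peak of any class: 167 (0.751%) to a shared place, 483 (2.17%) to an IRF4 alone peak and 514 (2.31%) to an IRF8 alone peak. Both an IRF4 alone and an IRF8 alone peak were assigned to 40 genes, Bach2, Cd83, Ets1, Irf5, Plcg2 and Pou2f2 among them. Of the IRF4 alone peaks, 2.43% had an IRF8 peak within 5 kb and 12.3% within 50 kb, and the median distance to the nearest was 429 kb. The distances expected of unrelated peaks were not computed. These values therefore do not show whether peaks of the 2 factors lie close together or far apart.

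In the lists of gene groups below, the count of genes near a peak of any class is set beside the 4.90% of all genes, and no test was made over a list. Of 32 transcription factors of the B lineage, 13 (40.6%) had a peak: 10 near an IRF4 alone, 3 near an IRF8 alone and 3 near a shared place. Besides the shared Pax5 place, Pou2f2, the gene of the octamer factor OCT2, had an IRF8 alone peak of 65.2 and an IRF4 alone peak of 39.8, each in another window. Bach2, whose product restrains the plasma cell programme, had 2 IRF8 alone peaks of 58.7 and 42.4 with 37 and 38 repeated words, and 1 IRF4 alone peak of 26.6. Tcf4, an E-protein gene, had 2 IRF4 alone peaks of 50.5 and 42.5. No adjustment was made for the length or spacing of genes.

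Of 28 plasma cell genes, 7 (25%) had a peak: 5 near an IRF4 alone peak, 2 near an IRF8 alone peak and 1 near a shared place. Ell2, which aids transcription elongation in antibody-secreting cells, had 47.8 IRF4 tags in an intron, with an EICE, an AP-1 site and an octamer. Derl3, a gene of protein disposal in the endoplasmic reticulum, had 42.5. Bhlha15, the secretory cell factor MIST1, had 29.2 IRF4 tags 8.88 kb upstream. Zbtb20 had a promoter IRF8 alone peak of 32.6 and a shared place of 26.6 and 32.6. Among these genes was Irf4 itself, with an IRF8 alone peak of 26.1 at 20.9 kb upstream, where IRF4 was listed at 48 h.

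Of 12 IRF family genes and relatives, 5 (41.7%) had a peak, all 5 near an IRF8 alone and 1 near an IRF4 alone peak. Irf5 had an IRF8 alone peak of 29.4 and an IRF4 alone peak of 26.6. Irf2 had an IRF8 alone peak of 26.1 at its promoter, Irf2bp2 one of 29.4 (17 repeated words) and 6430527G18Rik, the annotation's symbol for Irf2bpl, one of 29.4. All of these lie near the cut-off, and 3 of the 5 genes were near a peak of the IRF4 48 h list at the same place.

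Of 36 genes of B cell receptor signalling, 13 (36.1%) had a peak, 8 near an IRF4 alone, 7 near an IRF8 alone and 3 near a shared place, so the factors divided this group about evenly. Plcg2, the phospholipase of the pathway, had an IRF8 alone peak of 55.5 with an EICE and an IRF4 alone peak of 29.2 with 43 repeated words. Pik3ap1 had an IRF8 alone peak of 29.4 in addition to its IRF4 alone peak of 58.4. The 3 shared places were near Grap (85.0 IRF4, 32.6 IRF8), Inpp5d (45.1 and 52.2) and Rasgrp3 (47.8 and 26.1). Grap encodes an adaptor of receptor signalling and Inpp5d the inhibitory phosphatase SHIP1. Of these places Grap had the widest ratio, 2.61-fold higher in IRF4 (1.25 to 5.94, adjusted p = 0.264, exact binomial test), and it did not pass.

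Most genes of antigen presentation had no peak of any class. Of 21 genes of MHC class II presentation, 6 (28.6%) had a peak: 4 near an IRF8 alone, 2 near a shared and 1 near an IRF4 alone peak. Ctss had 62.0 IRF8 tags with an EICE, and Cd74, the invariant chain, 2 IRF8 alone peaks of 35.9 and 29.4, each with an EICE and each in the GC list. H2-DMb2 had a shared promoter place of 42.5 IRF4 and 39.1 IRF8 tags, and Lgmn a shared place 14.1 kb upstream of 47.8 and 26.1. Of 20 matched genes of MHC class I processing, 6 (30%) had a peak, 3 near an IRF8 alone, 2 near a shared and 1 near an IRF4 alone peak. Erap1, Psmb8 and Tapbp are described above, and Psmb9, another immunoproteasome gene, had a shared place of 39.8 and 39.1 tags. H2-Q4, H2-K1 and H2-DMb2 have near-identical relatives, so their peaks (16, 17 and 21 repeated words) are uncertain.

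Of 46 matched interferon-stimulated antiviral genes, 6 (13.0%) had a peak, 5 near an IRF8 alone, 1 near an IRF4 alone and 1 near a shared place. Trim21, Mov10, Stat3 and Trim25 led, with IRF8 alone peaks of 39.1, 35.9, 32.6 and 32.6. The Stat3 peak had 58 repeated words. Stat3 also had an IRF8 alone peak of 29.4 with 2 repeated words and an IRF4 alone peak of 26.6 with 36. Trim25 had IRF8 alone peaks of 32.6 both at its promoter (0 repeated words) and 24.5 kb away (42). Of 20 interferon-induced GTPase genes, 4 (20.0%) had a peak, 2 near an IRF8 alone and 2 near a shared place, all 4 at promoters with an ISRE core and all 4 in the GC list. These were Irgm1 (42.4 IRF8 tags), Irgm2 (32.6, with 88 repeated words), Gbp7 and Gbp3.

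Of 31 germinal centre and activation genes, 6 (19.4%) had one, among them Ezh2, Icosl (55.8 IRF4 and 39.1 IRF8 tags, shared), Cd83 (39.1 IRF8 and 34.5 IRF4, in different windows) and Cxcr5 (35.9 IRF8, at the promoter). Of 35 B cell surface and co-receptor genes, 7 (20.0%) had one, 4 near IRF4 alone peaks, such as Ccr7, Cd48 and Tnfrsf13c at 37.2 each, the last being the receptor BAFF-R. Siglecg had a shared place of 53.1 and 32.6. Of 38 genes of Toll-like receptor and NF-kappaB signalling, 7 (18.4%) had a peak: 4 near an IRF8 alone, 3 near an IRF4 alone and 1 near a shared place. Among them, Nfkb1 had 2 IRF4 alone peaks of 42.5 and 39.8, and Tnip1 and Tlr1 had IRF8 alone peaks of 32.6 and 29.4. Tlr4, the LPS receptor, had a shared promoter place of 26.6 and 39.1 and an IRF8 alone peak of 29.4. Of 18 genes of the AP-1 and BATF family, 3 (16.7%) had one: Bach2, Batf (29.2 IRF4 tags) and Atf3 (26.6 and 29.4, shared). Of 31 apoptosis genes, 3 (9.68%) had one: Bcl2l11 (32.6 IRF8), Mcl1 (29.4 IRF8) and Casp8 (26.6 IRF4). Of 31 Myc and cell cycle genes, 3 (9.68%) had one: Cdk8, Cdk6 (31.9 IRF4) and Myc, whose IRF8 alone peak of 35.9 held an EICE and was listed for both factors at 48 h. Among 28 marker genes of T, myeloid and dendritic cells, 1 (3.57%) had a peak, Cd2. Among the peaks named here, those of Icosl, Bcl2l11, Mcl1, Tnip1 and Cdk8 had 20, 34, 13, 30 and 65 repeated words. The IRF8 alone peaks of Cd2 had 30 and 18, and its IRF4 alone peak 0.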

How the data were processed

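The authors called the peaks of the 4 LPS lists with HOMER findPeaks (factor style), per the file headers. Their settings were 500 bp peaks spaced by 1000 bp or more, 1 tag per position at most, an FDR of 0.001, 4-fold enrichment over the 10000 bp around the peak and a local Poisson p-value limit of 1e-04, also per the file headers, which name no control library. The deposited signal is a tag count that the authors normalised to 10000000 tags. The deposited score is a tag number, the folds are ratios to the local or clonal background, the focus ratio is a fraction, and the p-value is the caller's, per the file headers; none of these entered a test. Positions are mm9, per the labels. BWA and Bowtie2 stand in the submitters' processing notes, while the design text uses other words, so the aligner is not settled. MACS made the GC list, per that text, which gives positions alone.

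Dividing out the scaling gave whole tags within 0.05 for 100% of peaks. Genes were those of GENCODE M1, counting every transcript start of a protein-coding gene. Motifs were matched letter by letter on both strands within 100 bp of the centre; further forms were SP1 (GGGCGG), an E-box (CACGTG), NF-kappaB (GGGA and TTCC with 2 bases between) and a CTCF core. Intervals are exact 95% Clopper-Pearson, Poisson or conditional intervals (scipy 1.17.1). Those of tags cover counting error only, and no molecular identifiers mark which tags stem from 1 molecule. Those of shares and odds ratios treat peaks as independent draws. Peaks are not replicates. The tag test was checked on simulated tags. Named places are the 8 highest per class with a TSS within 50 kb, shared places past the test, and up to 4 members per gene list by highest peak. Others, such as those with every word found once, with an ISRE core at a promoter or with a composite AP-1-IRF element, were named after their values were seen, and so were the further sequences printed for them. A few of these places and sequences are not reported here. The members and lists were chosen with earlier results of these data known.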

Additional observations from a re-analysis of the deposited data

Results flagged for a closer look

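Peaks in multi-copy or unplaced sequence, which took no part in the comparisons, held 35.2% of the tags in IRF4 72 h peaks and 37.7% of those in IRF8 72 h peaks. They were 66 IRF4 and 145 IRF8 peaks, with the highest at 4684 and 4711 normalised tags, far above the highest single-copy peaks of the 2 lists (196.5 and 205.5). Of them, 44 of the IRF4 and 49 of the IRF8 peaks overlapped a peak of the other list. No control library was analysed here, so these values have no background to be set against.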

How the results depend on the processing

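No paired analysis was possible because each group had 1 library and the labels give no replicate numbers. Keeping only peaks at or above the median of both lists (31.9 normalised tags) left 125 shared, 269 IRF4 alone and 366 IRF8 alone places, and the shared places were 31.4% of the IRF4 peaks. With no peak set aside that share was 28.7%. Where every word was found once, a rule added after seeing the data, 129 shared and 305 IRF8 alone places were left, at 22.0% of IRF4 and 29.7% of IRF8 peaks, near 106 and 243 genes. The odds ratio of IRF4 alone over IRF8 alone for promoters was 1.06 at the median limit and 1.32 with every word found once, and for the EICE it turned to 0.644 under the latter. For the ISRE core it was 0.661 without promoter peaks, with an interval that includes 1. At the median limit the IRF4 48 h list held 89.6% of shared, 74.0% of IRF4 alone and 19.9% of IRF8 alone places, the IRF8 48 h list 4.09% and 12.02% of the last 2 classes, and the GC list 20.4% and 26.5%. With every word found once, IRF8 alone places were at 18.03%, 8.85% and 24.6% in these 3 lists. Counting every gene within 50 kb gave 366, 1060 and 1188 genes near shared, IRF4 alone and IRF8 alone places. The AP-1, ISRE, CT and GT odds ratios kept their side of 1 under all alternatives run. The tag test called 1 place with IRF8 higher and 0 with IRF4 higher under all 4 of its alternatives. Depth limits every class: most peaks lie within counting error of the cut-offs.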
